A study of Mus musculus with 2 samples.

Results

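The anterior eye of 2 mouse genotypes was profiled by single-cell RNA sequencing, and the cells described here are 225 Sfrp4-positive stromal cells that meet the criteria of none of the 4 main stromal types. Foxc2 fl/fl mice served as control, and NC-Foxc2-/- mice carried the same floxed alleles with Wnt1-Cre, a transgene active in the neural crest lineage that forms most of the anterior eye stroma. Both genotypes were on a mixed strain background. The age label is 4 weeks and the protocol gives 3 to 4 weeks. The anterior segments of 4 to 6 mice were pooled for 1 library per genotype after the iris was removed, and the NC-Foxc2-/- mice were chosen for moderate ocular phenotypes so that the segment could be dissected. Cells were counted as members when at most 8% of their unique molecular identifiers (UMIs, counted transcripts) were mitochondrial, they had at least 1000 UMIs, at least 2 UMIs of Sfrp4, at least 5 UMIs of the stromal proteoglycan gene Dcn and 0 UMIs of the immune gene Ptprc and the endothelial gene Cdh5. Fibroblasts (Pi16 and Clec3b both at least 3 UMIs), juxtacanalicular meshwork cells (Myoc plus Chil1 at least 10 per 10000 UMIs), trabecular beam cells (Edn3 and Gpc3 both at least 2 UMIs) and keratocytes (Kera at least 5 per 10000 UMIs) were left out. The 225 members were 34 of 10369 control cells and 191 of 10399 NC-Foxc2-/- cells, of 20768 cells in all.

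Sfrp4 encodes a secreted frizzled-related protein that binds Wnt ligands outside the cell and limits their access to Frizzled receptors. In skin and other organs it marks subsets of connective tissue fibroblasts. The 3 other genes proposed as markers of these cells are Pthlh, which encodes a hormone related to parathyroid hormone that acts locally on neighboring cells, Col6a5, a chain of the beaded filament collagen VI, and Smoc2, a secreted matricellular protein that binds calcium. In the GENCODE M21 annotation of GRCm38/mm10, Sfrp4 lies on the plus strand at chr13:19623104-19632994, Pthlh on the minus strand at chr6:147252101-147264183, Col6a5 on the minus strand at chr9:105856078-105960643 and Smoc2 on the plus strand at chr17:14279506-14404790.

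With 1 pooled library per genotype no difference could be tested between genotypes, so no p-value is given. Levels are in CPM, the UMIs of a gene summed over a set of cells, divided by all UMIs of that set and scaled to 1000000. Exact 95% intervals follow in brackets, Poisson for levels, conditional binomial for ratios and Clopper-Pearson for shares, and they cover counting error only. A gene is called higher from a CPM ratio of 2 upward and lower from 0.5 downward, provided that the sums held 50 UMIs or more between them. The libraries held 119355777 and 94362313 UMIs after the cell filters, with medians of 8078 and 6835 per cell in control and NC-Foxc2-/-. The members held 264535 and 1083525 UMIs, with medians of 6183 and 5144 per cell, so that 1 UMI was worth 3.78 CPM in control members and 0.923 CPM in NC-Foxc2-/- members. The libraries shared 52 barcodes, of which 0 were members in control and 2 in NC-Foxc2-/-. A doublet caller marked 417 and 445 cells, 3 of them members in each library.

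Foxc2 itself (chr8:121116171-121118895, plus strand) had 13 UMIs in the control members, 49.1 CPM (26.2 to 84.0), in 9 of 34 cells. It had 1 UMI in the 191 NC-Foxc2-/- members, 0.923 CPM (0.0234 to 5.14). Among stromal cells of the same kind without Sfrp4, the level of Foxc2 was 34.6 CPM in control mice and 7.22 CPM in mutants. The gene was therefore lower in the library labelled NC-Foxc2-/- in both sets, but no source read here says whether the counted 3′ tags lie within the deleted stretch, so its level is a limited check of the label. The related factor Foxc1 was at 71.8 CPM (43.2 to 112) in control members and 152 CPM (130 to 177) in NC-Foxc2-/- members.

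Members made up 0.328% of control cells (0.227 to 0.458) and 1.84% of NC-Foxc2-/- cells (1.59 to 2.11), a ratio of 5.60. Of the stromal cells they were 0.608% and 2.80%, and of the stromal cells outside the 4 types 1.59% of 2134 and 9.65% of 1980. The gene that chose the cells was itself higher across the NC-Foxc2-/- stroma, members included, at 79.5 CPM against 9.80 CPM in control. A difference in the share of such cells cannot be told apart here from a difference in the level of Sfrp4, so nothing further is read from the share. Sfrp4 was higher in NC-Foxc2-/- in each of 5 stromal sets: 576 against 99.4 CPM in fibroblasts, 148 against 5.46 in juxtacanalicular cells, 52.5 against 11.9 in beam cells, 43.0 against 8.39 in cells outside the 4 types with 3 or more UMIs of the uveal meshwork genes Lypd1 and Col23a1 in sum, and 8.15 against 0.760 in keratocytes. Cells outside the stroma had 6.96 and 0.436 CPM, and 0.558% and 0.0837% of them had at least 2 Sfrp4 UMIs, at median depths of 4768 and 6760 UMIs. The members carried 35.1% of the Sfrp4 UMIs of the NC-Foxc2-/- library and 24.2% of those of control, and fibroblasts carried 27.8% and 37.5%.

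The members sat close to the threshold in control and well above it in NC-Foxc2-/-. Sfrp4 ran from 1.12 to 49.0 per 10000 UMIs with a median of 4.27 in control members, and from 1.47 to 149 with a median of 10.5 in NC-Foxc2-/- members. The median count was 2 UMIs in control, the lowest the rule admits, and 5 UMIs in NC-Foxc2-/-. Just outside the threshold, 28 control cells and 86 NC-Foxc2-/- cells met every other clause with 1 Sfrp4 UMI, against 20 and 42 members with exactly 2. The clause on fibroblasts removed the most cells with Sfrp4, since 51 control and 139 NC-Foxc2-/- cells failed that clause alone, while 4 and 55 failed only the juxtacanalicular clause, 4 and 38 only the keratocyte clause and 8 and 16 only the beam clause.

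**Figure D1:**
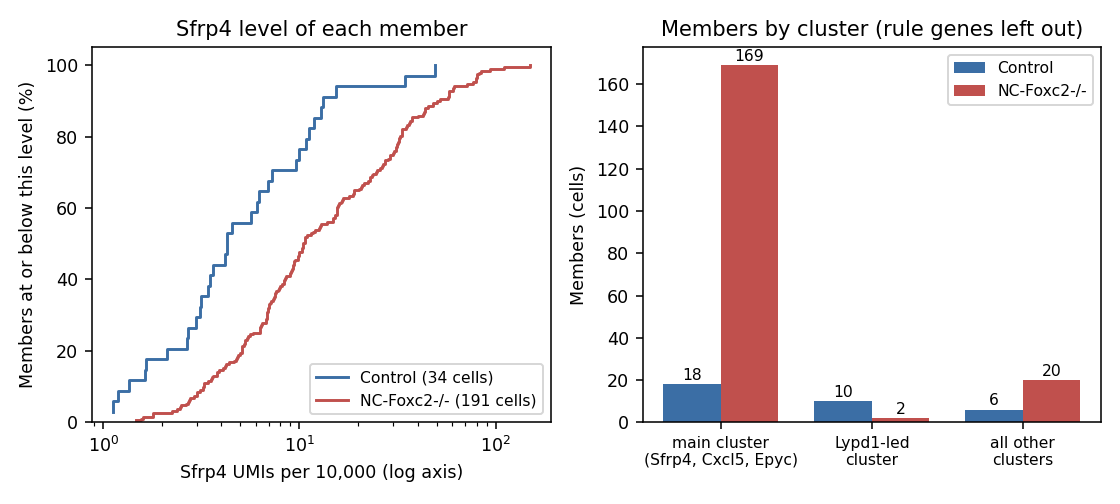
The left panel plots the cumulative percent of members against Sfrp4 UMIs per 10000 UMIs on a log axis, 1 line per library, and the right panel gives the number of members by cluster. The NC-Foxc2-/- line lies to the right (medians 10.5 and 4.27), and the cluster with the most members holds 169 of 191 NC-Foxc2-/- and 18 of 34 control members.

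When all cells were clustered without the 11 genes of the rule, 187 of the 225 members (83.1%) fell in 1 of 25 clusters. That cluster held 88.5% of the NC-Foxc2-/- members (83.1 to 92.6) but only 18 of the 34 control members (52.9%). It comprised 413 control and 1369 NC-Foxc2-/- cells, 3.98% and 13.2% of the libraries. Its leading genes were Sfrp4, Cxcl5, Epyc, Igfbp6, Col6a5, Sfrp2, C3, Mmp3, Col3a1 and Col6a6, with only 2 of the proposed markers among them, so it was left unnamed and is called the Sfrp4-led cluster here. Members were a minority of it: of its cells that met every clause but the Sfrp4 threshold, members were 12.2% in control and 25.3% in NC-Foxc2-/-. The next clusters were one led by Lypd1 with 10 control and 2 NC-Foxc2-/- members, a fibroblast-like one with 2 and 5, an unnamed one led by Col10a1 and Edn3 with 1 and 5, a juxtacanalicular meshwork-like one with 0 and 5, and one led by the epithelial genes Wfdc18 and Krt17 with 3 and 0.

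At a coarser resolution of 0.4, 190 of the 225 members (84.4%) fell in 1 cluster. At a finer resolution of 1.2 the Sfrp4-led cluster came apart, and the members with it. A juxtacanalicular meshwork-like cluster, led by Chad, Igfbp6, Sfrp2 and Cilp2, took 108 NC-Foxc2-/- and 5 control members. A fibroblast-like cluster, led by Clec3b, Pi16, C3 and Cxcl5, took 68 and 15. The label of 1 cell type outside the main types is therefore not borne out by these clusters: the members were spread over cells that resemble fibroblasts and cells that resemble juxtacanalicular meshwork, and the 2 libraries drew on them in different proportions. Across genes with the rule genes left out, log levels of the NC-Foxc2-/- members were most alike to those of fibroblasts (Pearson r = 0.960 over 13221 genes) and juxtacanalicular cells (0.9503), then beam cells (0.940), uveal cells (0.925) and keratocytes (0.873). The control members were most alike to uveal cells (0.930), with beam cells at 0.928 and fibroblasts at 0.925, while those of them in the Sfrp4-led cluster were most alike to fibroblasts (0.888). The NC-Foxc2-/- members of the finer juxtacanalicular meshwork-like cluster were at 0.938 with juxtacanalicular cells, 0.932 with fibroblasts and 0.927 with beam cells. These correlations run across genes, which are not replicates, and are given as a description.

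Markers of other cells were summed in the members. Fibroblast markers had UMIs in 28 of 34 control members (3281 CPM) and 182 of 191 NC-Foxc2-/- members (2234 CPM), although Pi16 and Clec3b could not both be high. Juxtacanalicular markers were at 98.3 and 268 CPM, in 12 and 96 cells, with Chad at 0 in control. Beam markers were at 204 and 269 CPM, and uveal markers at 253 and 60.9 CPM. Corneal endothelial markers were at 113 and 114 CPM, pericyte markers at 45.4 and 130 CPM, smooth muscle markers at 185 and 273 CPM with 54.7% of the latter in 1 cell, and pigment markers had 4 and 19 UMIs. Epithelial markers reached 3705 CPM in the control members, from 10 of 34 cells with 45.1% of the UMIs in 1 cell, and 45.2 CPM in the NC-Foxc2-/- members. Keratocyte markers had 436 UMIs in control, 56.2% of them in 1 cell and Chst5 at 0, and 161 in NC-Foxc2-/-. Haemoglobin and other erythroid markers had 3696 UMIs in control, 99.5% of them in 1 cell, and 6742 in NC-Foxc2-/-, 35.0% in 1 cell. Endothelial markers had 1 and 11 UMIs with Cdh5 at 0 by the rule, immune markers 5 and 58 with Nkg7 at 0 in both, Schwann markers 6 and 4 and cycling markers 0 and 13. In each library 4 members drew at least 1% of their UMIs from other cell types' markers, and the comparison of genotypes is also given without them.

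Among the stromal sets compared in NC-Foxc2-/-, the members had the highest level of Col6a5 and Pthlh, and keratocytes that of Smoc2. The other sets were not chosen by Sfrp4. In their cells with at least 2 Sfrp4 UMIs, Col6a5 was at 418 CPM in 16 beam cells, above the members. It was at 163, 89.9 and 80.6 CPM in such fibroblasts, juxtacanalicular cells and keratocytes. Pthlh was at 532 CPM in 55 such juxtacanalicular cells, also above the members, and at 263, 149 and 136 CPM in keratocytes, fibroblasts and beam cells. Col6a5 was at 410 CPM (373 to 450) in NC-Foxc2-/- members, in 81 of 191 cells, and at 30.2 CPM (13.1 to 59.6) in control members, where it rested on 8 UMIs in 4 of 34 cells. In NC-Foxc2-/- the next set, fibroblasts, was at 64.3 CPM, and the members exceeded it 6.37-fold (5.34 to 7.63). In control the next set was the juxtacanalicular cells at 10.6 CPM (7.48 to 14.6), with fibroblasts at 4.46 CPM. Most members had no Col6a5 UMI in either library, and the intervals of members and juxtacanalicular cells overlapped in control.

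Pthlh was at 320 CPM (287 to 356) in NC-Foxc2-/- members, in 90 of 191 cells, with up to 28 UMIs in a cell. In control members it was at 215 CPM (163 to 279), in 11 of 34 cells, with 40.4% of the UMIs in 1 cell. Without the members that carry other types' markers the control level was 76.7 CPM (42.9 to 126) and the NC-Foxc2-/- level 317 CPM. Over all members, fibroblasts were next in both libraries, at 103 CPM in control mice and 181 CPM in mutants. Without the marker-carrying members the control level lay below the 103 CPM of fibroblasts, with an interval that includes it. The fibroblasts were not filtered in that way. Pthlh was not confined to the stroma. It was among the leading genes of a cluster led by Tmprss11a that held 1008 control and 322 NC-Foxc2-/- cells. Of these, 9 in each library were stromal and 0 were members. The receptor of the hormone, Pth1r, was at 11.3 and 7.38 CPM in the members of control and NC-Foxc2-/-, close to the worth of 3 UMIs in control.

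Smoc2 was at 253 CPM (196 to 322) in control members and 186 CPM (161 to 213) in NC-Foxc2-/- members, in 14 of 34 and 98 of 191 cells. Keratocytes, which the rule removes, were at 195 and 394 CPM, so in NC-Foxc2-/- the highest level of Smoc2 was in keratocytes. Few members carried all markers at once: Pthlh, Col6a5 and Smoc2 were detected together in 22 of 191 NC-Foxc2-/- members and in 0 of 34 control members, and none of the 3 was detected in 32 and 14.

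**Figure D2:**
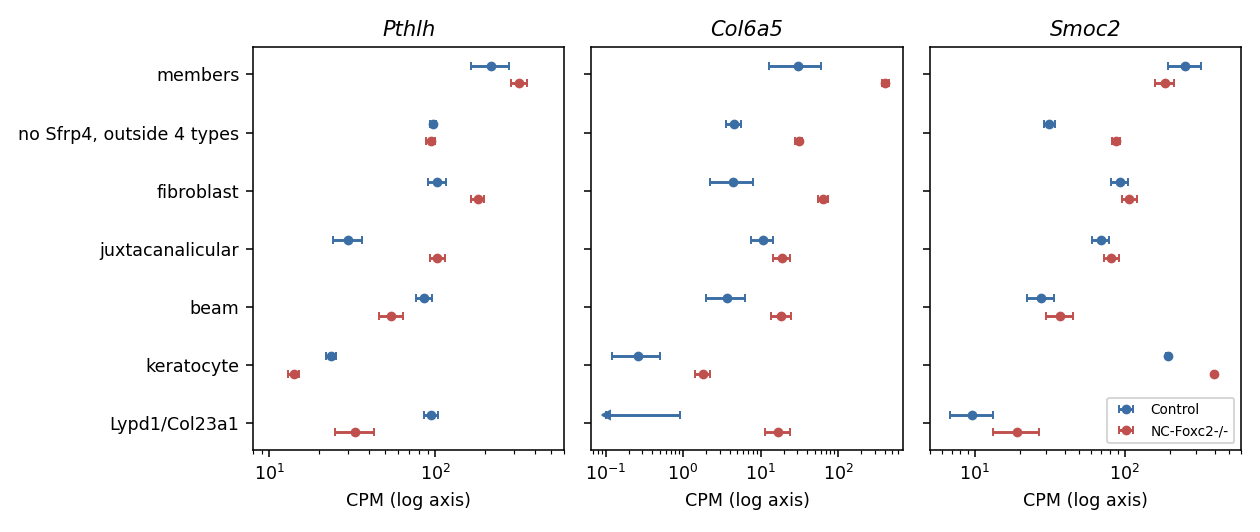
CPM on a log axis of Pthlh, Col6a5 and Smoc2 in the members and in 6 other sets of stromal cells, with 1 point per library, bars for the exact Poisson 95% interval and a left-pointing triangle for 0. In NC-Foxc2-/- the members are highest for Pthlh (320 CPM) and Col6a5 (410 CPM), while Smoc2 is higher in keratocytes (394 CPM) than in members (186 CPM).

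What the members expressed beyond the rule was read against stromal cells that met every other clause and had 0 Sfrp4 UMIs, 2072 control and 1703 NC-Foxc2-/- cells. Of these, 371 control and 79 NC-Foxc2-/- cells drew at least 1% of their UMIs from other cell types' markers. In both libraries the members were higher in the imprinted growth-related transcript H19, the insulin-like growth factor binding protein gene Igfbp6, the Wnt inhibitor gene Sfrp2 and a set of connective tissue fibroblast genes, and lower in Igfbp2, in Sparcl1 and in 4 chains of the basement membrane collagen IV. Of 10175 genes tested, 142 were higher in both libraries (1.4%) and 651 were lower in both (6.4%). The intervals lay on the same side of 1 in both libraries for 114 of the higher and 239 of the lower genes. The median log2 ratio over all genes was -0.21 in NC-Foxc2-/- and -0.03 in control, and scaling to it gave 239 higher and 472 lower genes. Taken alone, the control library called 7.23% of genes higher and 23.7% lower, and the NC-Foxc2-/- library 3.04% and 14.9%. Of the 651 lower genes, 258 had 0 UMIs and 519 had at most 3 UMIs in the control members, since a gene with 50 UMIs in the control cells without Sfrp4 has 0.762 expected UMIs in those 34 cells.

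H19 was at 166 CPM in control members against 29.2 CPM in the cells without Sfrp4, and at 510 against 57.3 CPM in NC-Foxc2-/-. The ratios were 5.71 (4.09 to 7.77) and 8.90 (7.93 to 9.99). Igfbp6 was 5.30-fold (4.66 to 6.01) and 6.77-fold (6.42 to 7.13) higher. Sfrp2, a relative of Sfrp4 that also binds Wnt ligands, was 5.29-fold (4.12 to 6.69) and 5.46-fold (4.98 to 5.97) higher, the most alike of these ratios between the libraries.

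The other leading genes were those of loose connective tissue. Cd34, a surface sialomucin of fibroblasts and progenitors, was 9.73-fold and 5.06-fold higher in control and NC-Foxc2-/-. Col14a1, which encodes a collagen that lies on fibril surfaces, was 10.8-fold and 4.73-fold higher, and Tnxb, the matrix glycoprotein tenascin X, 11.8-fold and 4.50-fold. The transcription factor genes Ebf1 (6.75-fold and 4.70-fold) and Osr2 (7.15-fold and 4.63-fold) and the thrombospondin gene Thbs3 (6.08-fold and 4.42-fold) followed. The neutrophil chemokine gene Cxcl5 was 7.93-fold and 4.54-fold higher, but 51.3% of its UMIs in control members came from 1 cell. Col6a6, the neighbor of Col6a5 in the collagen VI family, was 15.3-fold and 3.31-fold higher.

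Against the same cells, Col6a5 was 6.64-fold (2.77 to 13.7) higher in control and 13.2-fold (11.5 to 15.3) in NC-Foxc2-/-. Pthlh was 2.22-fold (1.67 to 2.89) and 3.41-fold (3.02 to 3.86) higher. Smoc2 was 8.05-fold (6.15 to 10.4) higher in control and 2.12-fold (1.81 to 2.47) in NC-Foxc2-/-. All 3 passed the fold rule in both libraries over all members, but the control value of Pthlh rested on a few cells. It was at 1.15 without called doublets, and at 4.27 (76.7 against 18.0 CPM) when cells that carry other types' markers were left out of both sets. Without uveal cells the ratio of Smoc2 in NC-Foxc2-/- was 1.89.

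The collagens divided by kind. Of the 11 fibrillar and fibril-associated collagens tested, 4 were higher in both libraries and 0 lower: Col14a1, Col1a2 (3.58-fold and 2.01-fold), Col3a1 (7.78-fold and 2.76-fold) and Col5a3 (7.80-fold and 2.20-fold). Their median of the smaller log2 change was 0.86, against 0 over all genes. Of the 5 collagen VI genes, Col6a5 and Col6a6 were higher. Of the 15 basement membrane genes 0 were higher and 4 lower, all of them collagen IV chains: Col4a3 (0.0127 and 0.0324), Col4a4 (0.0749 and 0.175), Col4a5 (0.229 and 0.475) and Col4a6 (0.161 and 0.103). Col4a3, Col4a4, Car3 and Npy also lead a corneal endothelial-like cluster, which held 166 of the control stromal cells, so that the cells without Sfrp4 are a mixed set that includes these.

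Among 14 genes of fibroblast subtypes, 6 were higher in both libraries (Dpt, Gsn, Igfbp6, Ly6a, Ly6c1 and Smoc2) and 1 lower (Penk), with a median of 0.48. Dpt, which encodes the fibril-binding protein dermatopontin, was 8.14-fold and 2.90-fold higher. Among 19 matricellular genes 5 were higher and 2 lower. Postn, which encodes periostin, was 6.09-fold and 2.59-fold higher, and Sparcl1, an anti-adhesive matrix protein, was at 0.0819 and 0.280 of the level in the cells without Sfrp4. Among 12 small leucine-rich proteoglycans 3 were higher (Aspn, Ecm2 and Epyc) and 1 lower (Fmod). Among 15 proteases 4 were higher (Adam19, Adamts5, Mmp2 and Mmp23) and 1 lower (Mmp13, at 0 UMIs in the members of both libraries), and among 21 elastic fiber genes Emilin2 and Mfap5 were higher.

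In the insulin-like growth factor list 3 of 10 were higher and 1 lower. Igf2 was 2.13-fold and 2.26-fold higher, Igfbp3 3.02-fold and 3.24-fold higher. Igfbp2 was at 0.116 (0.0991 to 0.135) and 0.184 (0.171 to 0.198) of the level in the cells without Sfrp4. The binding protein genes thus went both ways in the same cells. Of 23 transcription factors, Ebf1, Osr2 and Foxp2 (3.57-fold and 2.66-fold) were higher and Foxf2 lower, with 0 UMIs in control members and a ratio of 0.200 in NC-Foxc2-/-. Of 16 chemokines and cytokines, Cxcl5 and Il33 were higher and Il11 lower. Of 11 complement genes 3 were higher and 1 lower, of 14 retinoic acid genes Aldh1a2 was higher, of 4 parathyroid hormone pathway genes Pthlh was higher, of 20 TGF-β and BMP genes Fstl1 was higher and Id1 and Nog lower, of 7 bone and mineral genes Phex was higher and Alpl and Spp1 lower, and of 13 hypoxia genes Ndrg1 was higher and 3 lower. No tendon, immediate early or heat shock gene passed in both libraries, of 10, 12 and 9 tested.

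Among the Wnt genes the antagonists differed from each other. Of 9 tested, 2 were higher in both libraries, the rule gene Sfrp4 and Sfrp2, and 4 lower: Dkk1, Notum, Sostdc1 and Wif1. Sostdc1, a secreted Wnt and BMP inhibitor, was at 0.113 and 0.199 of its level in the cells without Sfrp4. Wif1, which binds Wnt ligands directly, had 0 UMIs in the control members against 277 in those cells and a ratio of 0.184 (0.100 to 0.310) in NC-Foxc2-/-. Notum had 0 and 1 UMIs in the members and Dkk1 1 and 0, so these calls rest on few counts. Of 24 ligand and receptor genes Wnt2 was higher (4.80-fold, 2.14 to 9.42, in control) and Rspo2, at 0 UMIs in the members of both libraries, and Wnt5b lower. Of 7 genes that respond to Wnt signaling 0 were higher and Nkd2 was lower, at 0.276 (0.132 to 0.508) and 0.197 (0.130 to 0.286).

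In NC-Foxc2-/- the level of Igfbp6 was higher at each step of Sfrp4 UMIs, and that of Col6a5 at most of them, including cells under the threshold. In NC-Foxc2-/- cells with 0, 1, 2, 3 to 9 and at least 10 Sfrp4 UMIs, Igfbp6 was at 319, 976, 1095, 2086 and 2865 CPM. Col6a5 was at 30.9, 95.5, 318, 295 and 605 CPM. Pthlh was at 93.8, 304, 261, 329 and 345 CPM, so cells with 1 UMI were already near the level of the members. Wif1 was at 70.3, 149, 57.4, 0 and 2.60 CPM, with its highest level at 1 UMI. In control the same steps held 2072, 28, 20, 11 and 3 cells, and Igfbp6 was at 188, 432, 943, 777 and 1788 CPM. Col6a5 was there at 4.55, 70.0, 6.41, 38.8 and 128 CPM, from 79, 17, 1, 3 and 4 UMIs, and showed no order.

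**Figure D3:**
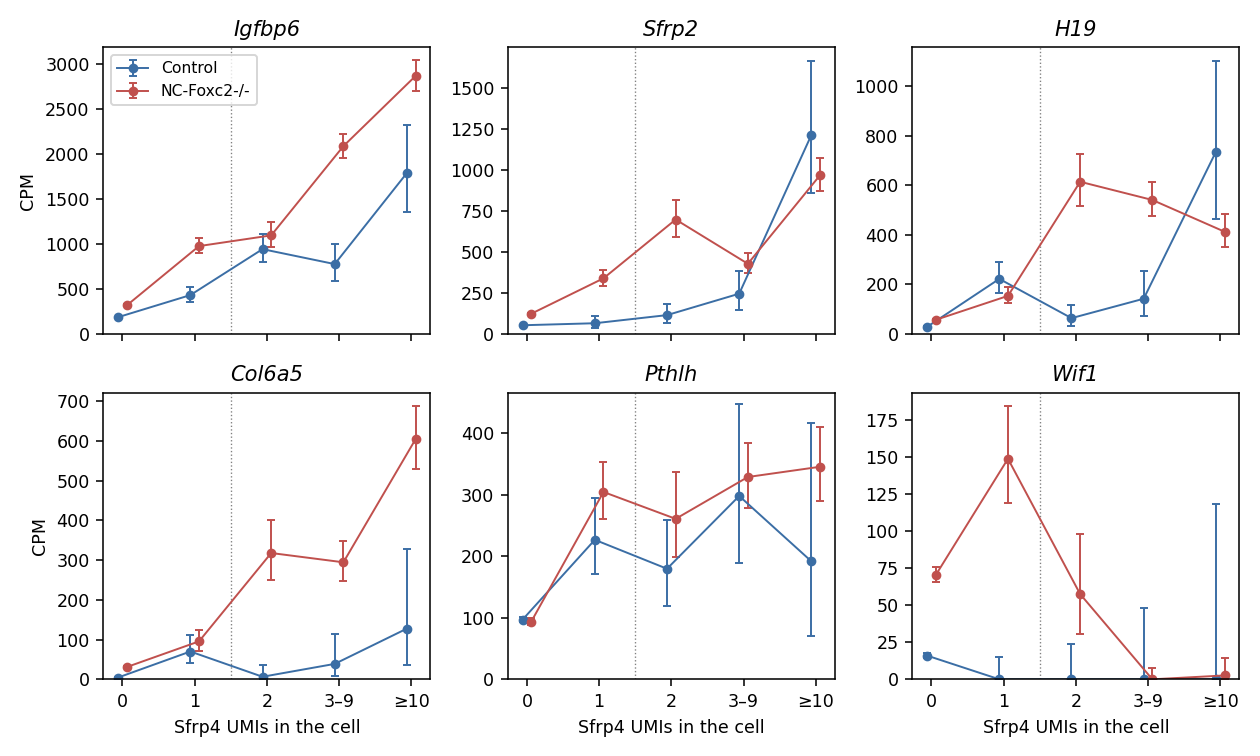
CPM on a linear axis of genes outside the rule in stromal cells outside the 4 types, grouped by Sfrp4 UMIs per cell, with 1 line per library, bars for the exact Poisson 95% interval and a dotted line at the rule's threshold. In NC-Foxc2-/- Igfbp6 goes from 319 CPM at 0 to 2865 CPM at 10 or more UMIs and Col6a5 from 30.9 to 605 CPM, and the levels at 1 UMI lie above those at 0.

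Most of these genes set the Sfrp4-led cluster apart as a whole, so the 169 NC-Foxc2-/- members in it were also set against 438 cells of that cluster with 0 Sfrp4 UMIs. Within the cluster the members were higher in H19, Col6a5, Pthlh, Igfbp6 and the small heat shock protein gene Cryab, and lower in Sparcl1, Igfbp2, Wif1, Coch and all 5 tested genes that respond to Wnt signaling. Both sets had like depth, with medians of 5087 and 4986 UMIs. Of 6314 genes tested 102 were higher (1.62%) and 342 lower (5.42%). Haemoglobin genes moved with the members, since 4 of 4 tested were higher with a median log2 ratio of 2.06, and 35.4% of the Hbb-bs UMIs in members and 80.4% of those in the cells without Sfrp4 came from 1 cell. Without cells that carry other types' markers, 165 members against 433 cells, 105 of 6261 genes were higher (1.68%) and 358 lower (5.72%), 0 of the 2 haemoglobin genes still tested passed, and H19 (5.14), Col6a5 (5.09), Pthlh (3.27), Igfbp6 (2.46) and Cryab (4.67) were higher and the 5 Wnt response genes lower. These comparisons were added after the data had been seen, and the control library was too shallow for the same counts, with 18 members in the cluster.

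Atp1b1, a subunit of the sodium pump, led the higher genes at 5.34-fold (4.04 to 7.11). H19 was 5.08-fold (4.36 to 5.93), Col6a5 4.94-fold (4.18 to 5.86) and Cryab 4.55-fold (4.21 to 4.92) higher. Pthlh was 3.31-fold (2.80 to 3.92) higher, Tac1, the precursor of the neuropeptide substance P, 2.81-fold, Igfbp6 2.43-fold, Ccn2, the connective tissue growth factor, 2.44-fold and Sfrp2 2.04-fold. Smoc2 did not pass at 0.972 (0.812 to 1.16), and neither did Cxcl5 (1.42), Igf2 (1.76) or Cxcl12 (0.999). In NC-Foxc2-/- Smoc2 therefore went with the cluster and not with Sfrp4 inside it. In the control cells of the cluster Col6a5 was at 68.1 CPM (29.4 to 134) in the 18 members and 94.9 CPM (74.5 to 119) in 122 cells without Sfrp4, and Pthlh was at 128 CPM (71.5 to 211) and 59.0 CPM (43.2 to 78.7).

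Within the cluster in NC-Foxc2-/- the Wnt response genes were few in UMIs but went 1 way. Apcdd1, an inhibitor that Wnt signaling induces, had 19 UMIs in members and 149 in the cells without Sfrp4, a ratio of 0.336 (0.197 to 0.544). Axin2, the negative feedback scaffold of the pathway, had 12 and 66 UMIs and a ratio of 0.479 (0.236 to 0.895). Nkd1 was at 0.479 (0.297 to 0.745), Nkd2 at 0.374 (0.211 to 0.624), and Tnfrsf19 at 0.149 (0.0298 to 0.461) from 3 and 53 UMIs. The median log2 ratio of these 5 was -1.42, against -0.06 over all genes. In control members, with 2 UMIs of Axin2, the list was not read within the cluster. Over all control members, against the cells without Sfrp4, 8 genes of the list were tested. There Apcdd1 and Znrf3 were higher and Nkd2 lower, with a median of -0.06 against -0.03 over all genes, so Apcdd1 went the other way.

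Of 17 Wnt ligand and receptor genes 5 were lower (Rspo3 0.466, Wnt11 0.493, Wnt5a 0.448, Wnt9a 0.423 and Wnt4 0.0713 from 2 UMIs) and 2 higher, the receptor genes Fzd6 at 3.55-fold (2.14 to 5.95) and Fzd4 at 2.15-fold (1.41 to 3.26). Of 7 antagonists 2 were higher, the rule gene Sfrp4 and Sfrp2, and Wif1 was lower at 0.0617 (0.0326 to 0.106), where 84.6% of its 13 UMIs in members came from 1 cell. Without cells that carry other types' markers Wnt11 no longer passed and Rspo1 and Sostdc1 passed as lower. Sparcl1 was at 0.122 (0.0913 to 0.159) and Igfbp2 at 0.173 (0.153 to 0.195). Coch, which encodes the matrix protein cochlin, had 0 UMIs in members and 262 in the cells without Sfrp4. Of 16 chemokine and cytokine genes 0 were higher and 6 lower, among them Ccl2 (0.357), Ccl7 (0.379) and Cxcl14 (0.241), and of 12 basement membrane genes 4 were lower, among them Col4a1 (0.494) and Col15a1 (0.457).

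**Figure D4:**
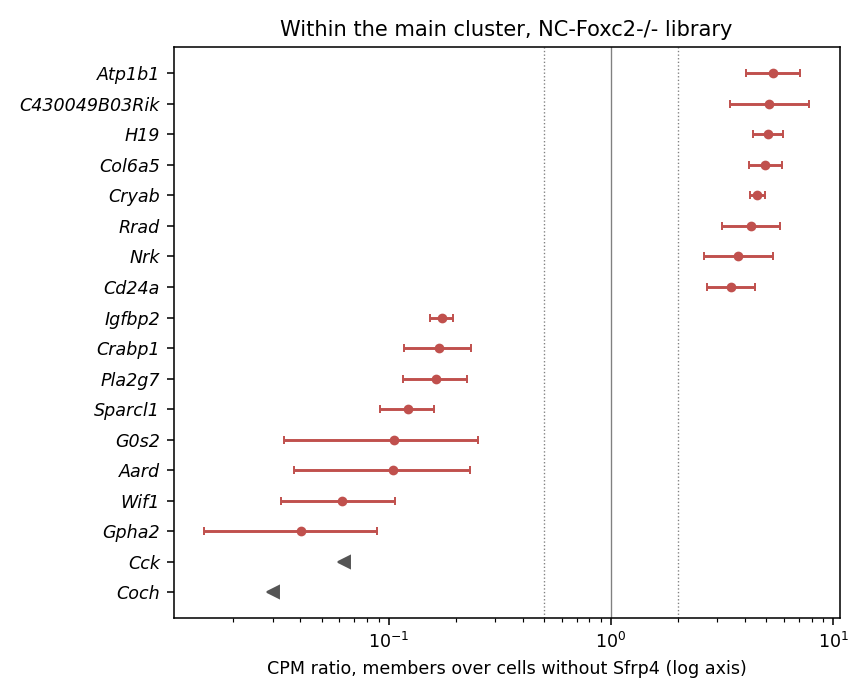
CPM ratio on a log axis, members over cells with 0 Sfrp4 UMIs, within the Sfrp4-led cluster of NC-Foxc2-/- (169 and 438 cells), with bars for the exact 95% interval, triangles for bounds from 3 counts where a sum is 0 and dotted lines at 0.5 and 2. The genes drawn are the highest and lowest ranked ones, without the rule genes. H19 (5.08) and Col6a5 (4.94) lie above 2, and Sparcl1, Igfbp2 and Wif1 lie below 0.5.

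The members of the 2 finer clusters differed from each other, which is described only, since the clusters were made from these genes. Members of the juxtacanalicular meshwork-like cluster were higher in the tendon and cartilage genes Thbs4 (5.24-fold, 4.10 to 6.78), Tnmd (3.91-fold), Cilp2 (3.03-fold) and Col11a1 (2.36-fold), and members of the fibroblast-like cluster in C3, Eln, Cxcl5, Mmp3, Il6 and Ccl2, with 10 of 14 chemokine and cytokine genes lower in the former. Of 2649 genes, 3.17% were higher and 4.98% lower. Col6a5 was at 391 CPM in the former and 509 CPM in the latter, Pthlh at 422 and 263 CPM, Smoc2 at 200 and 170 CPM. The proposed markers thus differed by less than 2-fold between them. Against cells without Sfrp4 of the same finer cluster, Col6a5 was 8.80-fold and H19 7.32-fold higher in the juxtacanalicular meshwork-like members, where 2.45% of 5186 genes were higher and 8.39% lower, and Pthlh was 5.76-fold, Ccn2 5.55-fold and Sfrp2 3.22-fold higher in the fibroblast-like members, where 1.68% of 3388 were higher and 3.04% lower. Col6a5 did not pass in the fibroblast-like members, at 1.85 (1.53 to 2.22), with 509 CPM against 276 CPM in the cells without Sfrp4.

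Against the NC-Foxc2-/- fibroblasts that the rule removes, the members were higher in 238 of 6705 genes (3.55%) and lower in 409 (6.1%). The cartilage matrix gene Cilp2 was 27.4-fold (15.5 to 52.7) higher, the mineral-binding matrix protein gene Spp1 7.19-fold, Col12a1, a fibril-associated collagen, 5.12-fold, the retinoic acid binding protein gene Crabp2 5.12-fold and Tac1 5.43-fold. Ly6c1 (0.0656), Dpp4 (0.0726) and Cd55 (0.0813), surface proteins of the Pi16-positive fibroblasts, were lower. Part of this difference follows from the rule, which removed cells by Pi16 and Clec3b.

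The last comparison asked how the members of the genotypes differed. NC-Foxc2-/- members were higher in Col6a5, in 3 of 6 tendon and cartilage genes, in Igf1, Igf2, Igfbp3, Igfbp5 and Igfbp6 and in 6 of 9 heat shock genes, and lower in Hspb1, Ccl2, Ccl7 and Cxcl10. Of 3606 genes tested 335 were higher (9.29%) and 249 lower (6.91%) in NC-Foxc2-/-, and the median log2 ratio was 0.03. Without the members that carry other types' markers, 309 (9.14%) were higher and 233 (6.89%) lower of 3382, of which 243 and 157 were among the former. The genotypes cannot be told apart here from the libraries, nor from the clusters the members came from, since 15 of the control members were in the finer fibroblast-like cluster and 5 in the juxtacanalicular meshwork-like one, against 68 and 108 in NC-Foxc2-/-.

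Cilp2 had 140 UMIs in NC-Foxc2-/- members and 0 in control members, at least 11.4-fold higher by the floor of 3 counts over the control sum. Thbs4 had 552 and 2 UMIs, a ratio of 67.4 (18.6 to 558), and Angptl7, a secreted protein of the outflow tissue and cornea, 160 and 1 UMIs (39.1, 6.91 to 1552). The methyl-CpG binding protein gene Mbd1 had 176 and 2 UMIs (21.5, 5.86 to 179), Col6a5 444 and 8 (13.5, 6.82 to 31.6) and Col11a1 177 and 5 (8.64, 3.63 to 26.9). Several of these rest on 0 to 5 control UMIs. In stromal cells without Sfrp4 the same genes were higher in NC-Foxc2-/- by 3.19-fold (Cilp2), 4.57-fold (Thbs4), 6.03-fold (Angptl7) and 6.80-fold (Col6a5, 5.31 to 8.79), and Col11a1 by 1.63-fold, which does not pass.

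The lowest genes were epithelial. Krt12, the keratin of the corneal epithelium, had 595 UMIs in 6 control members and 17 UMIs in NC-Foxc2-/- members, and Krt16 had 156 and 2 UMIs. Sfn, Krt5 and Krt14 were also among the 10 lowest. These moved with the epithelial markers given above, and after the cells that carry other types' markers were left out Sfn was at 1.02. The lowest genes then were Csrp1 (0.0535), Cited2 (0.143), Arl4d (0.166), Gm13889 (0.167), Cxcl10 (0.189), Tagln (0.218), Ccl2 (0.224), Gsta4 (0.233), Ly6a (0.249) and Bpgm (0.264). Within the Sfrp4-led cluster Csrp1 was at 0.942.

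In the insulin-like growth factor list 5 of 10 genes were higher and 0 lower, with a median log2 ratio of 0.77, and the same 5 were higher without the cells that carry other types' markers. Igf1 was 2.63-fold (2.08 to 3.36), Igf2 2.64-fold (1.88 to 3.83), Igfbp3 2.47-fold, Igfbp5 3.18-fold (2.77 to 3.66) and Igfbp6 2.17-fold (1.91 to 2.47) higher. Within the Sfrp4-led cluster 2 of 10 passed, Igf2 at 2.49 and Igfbp5 at 2.24, while Igf1 was at 1.95 and Igfbp6 at 1.47. In the cells without Sfrp4, Igf2 was 2.49-fold higher too and Igf1 was at 0.751.

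Of 9 heat shock and chaperone genes 6 were higher and 1 lower, with a median of 1.38. Hspa1a was 3.54-fold, Hspa1b 4.62-fold, Hsph1 3.12-fold and Hsp90aa1 2.61-fold higher, and Hspb1 was at 0.460. Hspa1a and Hspa1b, which respond to stress of many kinds including tissue dissociation, were also 2.54-fold and 2.47-fold higher in the cells without Sfrp4. Within the Sfrp4-led cluster 7 of 9 were higher and Hspb1 turned to 6.80. Of 11 hypoxia and glycolysis genes 0 were higher and 5 lower, among them the glucose transporter gene Slc2a1 (0.316), Gapdh (0.456) and Adm (0.317). Within that cluster none of the 9 tested passed, with Slc2a1 at 0.905 and Gapdh at 0.642, so the list made no call there.

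Of 15 chemokine and cytokine genes 2 were higher and 5 lower. Ccl2, which attracts monocytes, was at 0.295 (0.263 to 0.331), Ccl7 at 0.379 and the interferon-induced Cxcl10 at 0.238 (0.201 to 0.282), while Il6 was 2.86-fold higher. In the Sfrp4-led cluster Ccl2 was at 0.187, Ccl7 at 0.196 and Cxcl10 at 0.146, although 44.8% of the control UMIs of Ccl7 there came from 1 cell. Among the members of the finer fibroblast-like cluster alone, 15 control and 68 NC-Foxc2-/- cells, Ccl2 was at 0.309 (0.267 to 0.358), Ccl7 at 0.311 and Cxcl10 at 0.217 (0.179 to 0.262), where 10.6% of 1647 genes were higher and 6.8% lower. In the cells without Sfrp4 the ratios were 1.62 for Ccl2, 1.88 for Ccl7 and 0.932 for Cxcl10, and in fibroblasts Ccl2 was 5.36-fold and Ccl7 3.54-fold higher. The members and the surrounding stroma thus had ratios on opposite sides of 1 for Ccl2 and Ccl7, a difference that was not tested. Of the cells without Sfrp4, 371 of 2072 in control and 79 of 1703 in NC-Foxc2-/- carried other types' markers. The ratios between genotypes in that set are not given without them, so their size is uncertain.

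Of 6 tendon genes 3 were higher and 0 lower, among them Tnmd at 10.1 (2.72 to 85.1) from 2 control UMIs. Of 15 genes of the TGF-β and BMP list 5 were higher (Bmp2, Bmp4, Fst, Tgfb2 and Tgfb3) and 2 lower (Inhba and Tgfb1). Fst, which encodes the activin-binding protein follistatin, was 4.39-fold (3.09 to 6.43) higher and was at 2.83 within the Sfrp4-led cluster and 1.35 in the cells without Sfrp4. Of 10 small leucine-rich proteoglycans Fmod (4.94), Ogn (2.19) and Ecm2 (2.62) were higher. Of 17 matricellular genes 4 were higher (Smoc1, Sparcl1, Thbs4 and Tnc) and 2 lower (Ccn4 and Spp1), and of 13 protease genes 4 were higher (Adam19, Adamts1, Mmp19 and Mmp2) and Mmp3 was lower at 0.395, where within the cluster 56.3% of the control UMIs came from 1 cell.

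Of 10 fibrillar and fibril-associated collagens Col11a1 and Col12a1 (3.72, 2.84 to 4.97) were higher, of 5 collagen VI genes Col6a5 was higher, and of 11 basement membrane genes 0 passed. Of 19 elastic fiber genes Ltbp3 was higher (2.86) and Eln, which encodes elastin, was lower (0.364). Eln was at 0.345 within the Sfrp4-led cluster, 0.278 in fibroblasts and 1.10 in the cells without Sfrp4. Of 13 transcription factors Foxc1 (2.12), Ebf1 (2.06) and Foxp2 (2.78) were higher and Prrx2 (0.496), Tfap2b (0.212, 0.120 to 0.370) and Twist2 (0.361) lower.

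Of 14 fibroblast subtype genes Igfbp6 was higher and Ly6a (0.261) and Ly6c1 lower, of 8 complement genes C1ra and C1s1 were higher and C4b and Cfb lower, of 5 retinoic acid genes Crabp2 (2.46) and Dhrs3 (2.89) were higher, and of 12 immediate early genes Ier3 (0.324) and Junb were lower. Of 8 Wnt ligand and receptor genes Fzd6 was higher, of 5 antagonists the rule gene Sfrp4 and Sfrp2 were higher, and no Wnt response gene reached 50 UMIs.

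Of the proposed markers, Pthlh did not pass at 1.49 (1.12 to 2.00) over all members, but was 4.13-fold (2.47 to 7.47) higher without the cells that carry other types' markers and 2.79-fold (1.67 to 5.05) higher within the Sfrp4-led cluster. Smoc2 was at 0.732 (0.553 to 0.981) over all members and passed as lower within the cluster at 0.390 (0.288 to 0.535), while it was 2.78-fold higher in NC-Foxc2-/- cells without Sfrp4. Col6a5 was 6.55-fold (3.29 to 15.3) higher within the cluster, where 11.7% of 2807 genes were higher and 6.95% lower, and 7.15-fold (3.57 to 16.8) in the finer fibroblast-like cluster. Sfrp2 was 2.39-fold (1.88 to 3.07) higher over all members and at 1.16 within the cluster.

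**Figure D5:**
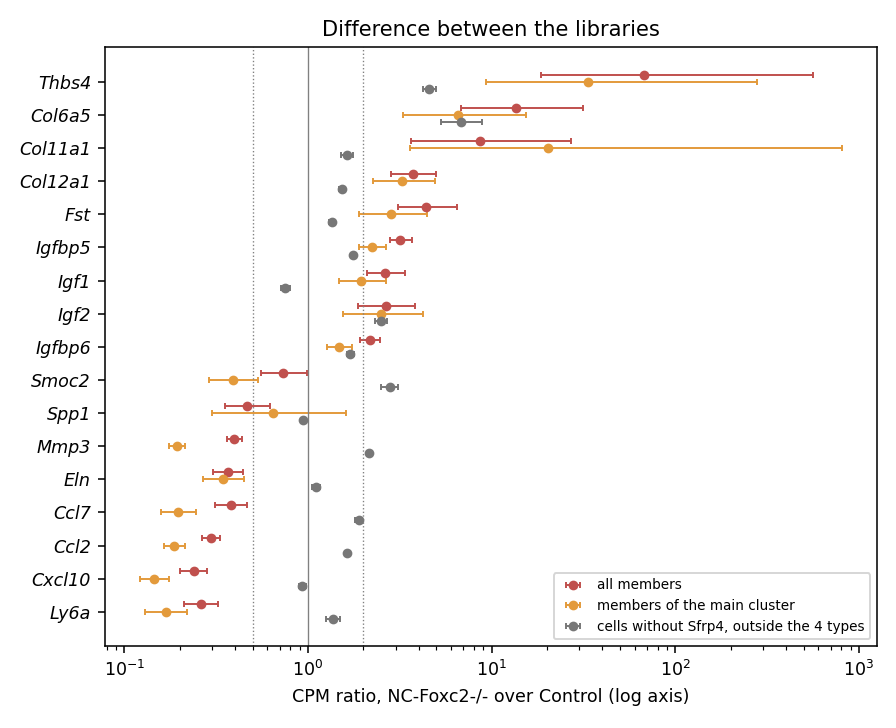
CPM ratio of NC-Foxc2-/- over control on a log axis for 17 genes, in all members, in the members of the Sfrp4-led cluster and in cells with 0 Sfrp4 UMIs, with bars for the exact 95% interval. Col6a5 is above 2 in all 3 sets (13.5, 6.55 and 6.80), and Ccl2 is below 0.5 in both sets of members (0.295 and 0.187) and at 1.62 in the cells without Sfrp4.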

How the data were processed

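Anterior eye segments were dissociated and sequenced with 10x Genomics 3′ v3.1 chemistry, 1 pooled library per genotype. The authors deposited UMI counts per gene and barcode from Cell Ranger 4.0.0 on mm10. No source read here names the annotation release. Each library listed 32285 genes, with 38 repeated symbols kept apart by gene identifier.

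Cells with at most 8% mitochondrial and at least 1000 UMIs were kept, and the rule was applied to raw counts. Counts were summed per library and set of cells and divided by the total. A ratio against a sum of 0 is a bound from a floor of 3 counts. Doublets were called with Scrublet in scanpy 1.11.5 and kept. Cells were clustered on 2837 variable genes without the 11 rule genes (15 principal components, 25 neighbors, Leiden resolution 0.8), and a cluster was named when at least 3 markers of 1 list were among its top 10 genes. Likeness used log2 CPM with a pseudocount of 10. No sample-level test was possible. The code was tested on simulated counts.

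Genes named are those of the rule, the proposed markers, the 12 highest and 8 lowest ratios (10 and 10 between genotypes) with at least 100 UMIs and 50 CPM, and list members. The ranked choices omitted Xist and genes of the Y chromosome, mitochondria, ribosomal proteins and haemoglobin. A count of list members that passed is read beside the share of all genes that passed. The cell criteria, the 23 gene lists and the 16 marker lists were chosen with earlier results of these data known. Alternatives changed the filters, the Sfrp4 threshold, scaling, depth, doublets, uveal cells and clustering. NumPy 2.4.6, SciPy 1.17.1 and pandas 2.3.3 were used.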

Additional observations from a re-analysis of the deposited data

Results flagged for a closer look

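For 8 genes with at least 100 UMIs and 50 CPM in each library, the members differed from the cells without Sfrp4 in opposite directions in the libraries, by the fold rule on each side; none of these differences was tested. Atp1b1, a sodium pump subunit, was at 0.143 of the level of those cells in control members, from 8 UMIs in members, and at 2.03 in NC-Foxc2-/- members. Fbxo32, a ubiquitin ligase gene, was at 0.221 in control, from 3 UMIs in members. In NC-Foxc2-/- it was at 2.33, with 34.6% of the UMIs in members from 1 cell. Cited1, a transcriptional co-regulator gene, was at 0.122 in control, from 2 UMIs in members, and 2.41 in NC-Foxc2-/-. S1pr3, a receptor for sphingosine 1-phosphate, was at 2.25 in control and 0.348 in NC-Foxc2-/-, and Plet1 at 2.10, from 4 control members, and 0.0302. Krt16 was at 2.52 and 0.0363, Cstdc5 at 2.53 and 0.0268, and 2610528A11Rik at 2.53 and 0.0498, all 3 epithelial genes whose UMIs in control members came from 3 cells.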

How the results depend on the processing

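No paired analysis was possible because each genotype has 1 library. Leaving out a replicate was likewise not possible. With Sfrp4 at least 3 UMIs the share of members was 0.135% in control and 1.43% in NC-Foxc2-/-, with at least 1 UMI 0.598% and 2.66%, and after each cell was thinned to 3000 UMIs the control share was 0.199%; the ratio of the shares ran from 4.45 to 10.6 over all alternatives. Between genotypes the higher and lower genes numbered 183 and 120 of 1736 tested after thinning, of which 97 and 70 were among the main calls. With Sfrp4 at least 3 UMIs they numbered 401 and 177 of 2687, of which 174 and 110 were among the main 335 and 249. They numbered 797 and 607 with at least 20 UMIs, and 76 and 54 with at least 200 UMIs. For members against cells without Sfrp4 they numbered 239 and 472 when scaled by the median gene ratio. Without cells that carry other types' markers they numbered 111 and 548, of which 97 and 426 were among the main calls. The counts were 210 and 1127 with at least 20 UMIs, and 76 and 257 with at least 200 UMIs. Fewer genes were tested under the stricter minimum. The cluster with the most members held 84.4% of them at resolution 0.4, 50.2% at resolution 1.2 and 50.2% with an approximate neighbor graph, against 83.1%. Cxcl5 in control turned to 0.763 with Sfrp4 at least 3 UMIs, and Sfn between genotypes to 1.05 without called doublets and 1.02 without cells that carry other types' markers; the cause was not tested. Of 1060 single-gene values under alternatives, 324 moved beyond their interval and 3 were reversed, those of Cxcl5 and Sfn above. A value was counted as reversed only when its main ratio passed the fold rule and the alternative lay on the other side of 1. Crossings of 1 by ratios that did not pass the fold rule were not counted. The approximate graph, the sets without other types' markers and the comparisons within clusters, with and without those markers, were chosen after seeing the data. The 34 control members limit the precision of every value that rests on them.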

Other observations

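Cells that the rule gives to other types were also split by Sfrp4, a comparison chosen after values were seen. In NC-Foxc2-/- fibroblasts, 139 cells with at least 2 Sfrp4 UMIs and no criterion of another type were set against 200 with 0. Col6a5 was 14.9-fold (8.63 to 27.9) higher in the former and Sfrp2 5.24-fold, while H19 was at 1.40, Igfbp6 at 1.73 and Pthlh at 0.832. In juxtacanalicular cells, 55 against 466, Col6a5 was 8.62-fold, Pthlh 8.80-fold, Igfbp6 8.46-fold and H19 7.06-fold higher, and Sfrp2 was at 0.882. In keratocytes, 38 against 3108, Col6a5 was 83.2-fold, Sfrp2 64.1-fold, H19 33.8-fold, Igfbp6 32.8-fold and Pthlh 24.5-fold higher. Col6a5 therefore went with Sfrp4 in each of these types, and the other genes in some of them. In control fibroblasts, 51 against 170 cells, the ratio of Col6a5 was 2.37 (0.493 to 10.0).

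H19 was among several imprinted genes looked at after values were seen. In NC-Foxc2-/- members H19 was at 510 CPM against 57.3 in the cells without Sfrp4, Igf2 at 360 against 159, Peg3 at 393 against 195, Meg3 at 358 against 173, Plagl1 at 313 against 163, Cdkn1c at 557 against 272 and Mest at 114 against 45.9. Dlk1 was at 75.7 against 55.1 and Grb10 at 117 against 115. In control members Meg3 was at 140 against 182 CPM and Plagl1 at 125 against 176, so these genes were not above the cells without Sfrp4 there.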
